A study of Mus musculus with 2 samples.

Results

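The genes described here are 34 mouse genes that copy the genome or supply that work, measured one cell at a time in lymphocytes of ear epidermis. They were chosen by name, for their known part in DNA replication, with earlier results of these data known. They are 34 of the 31053 genes in the files. By role they comprise 6 MCM helicase subunits, 4 genes of origin licensing and helicase activation, 4 of the sliding clamp and its loader, 4 of priming, synthesis and single-strand binding, 2 of Okazaki fragment maturation, 6 of nucleotide supply and uracil removal, 4 of chromatin and histone supply, and 4 of G1/S control, checkpoint and recombination.

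The series holds 2 single-cell RNA libraries, 1 for each treatment, from female FVB/NJ mice of WT genotype aged 8 weeks. The isotype library follows injection of isotype control antibody into the skin, and the anti-Skint1 library follows anti-Skint1 antibody by the same route. Skint1 is a protein that dendritic epidermal T cells (DETC) need for their selection in the thymus, and suprabasal keratinocytes of the epidermis express it too. Ear epidermis was taken 7 d after injection in both groups, and live cells positive for CD45 and negative for EpCAM and MHC-II were sorted. The labels do not give the number of mice per library, and the legend in the paper gives n = 1 per group.

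DNA replication starts when the MCM helicase is loaded on origins and then activated. Primase and polymerases copy both strands behind it, the PCNA clamp keeps the polymerases on DNA, and nucleases and a ligase join the short fragments of the lagging strand. Most of these genes are transcribed in a wave at the border of G1 and S phase that E2F factors drive, and DETC are known to renew themselves slowly within the epidermis.

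Each library lists 6794880 barcodes. UMIs, counts of single mRNA molecules, numbered 27272211 (isotype) and 32450957 (anti-Skint1). Barcodes with at least 500 genes numbered 4896 and 6594, and 8 of their sequences occurred in both libraries. Those with at most 12% mitochondrial UMIs and no upper limit on genes were kept, 4709 and 6425 in all. Above the limit of 2500 genes that the study's methods set lay 467 and 464 of them. Throughout, paired values give the isotype library first.

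A level is the sum of a gene's UMIs over the cells of a class per 1000000 UMIs of that class (CPM), not scaled by gene length because reads come from 3′ ends. Ratios are on the log2 scale, without a pseudocount. Parentheses hold exact 95% intervals, which are Poisson for levels, conditional binomial for ratios and Clopper-Pearson for shares, and they cover counting error only. As treatments have 1 library each, there is no replicate and no test, and treatment cannot be told apart from library. A gene is counted as higher or lower when it differs by at least 1.5-fold and has at least 20 UMIs in the comparison.

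DETC were barcodes with at least 3 UMIs of Trdc, at least 3 of Cd3d, Cd3e and Cd3g together, and none of Trac, Cd4, Cd8a or Cd8b1. They numbered 3856 and 5232, with median depths of 4142.5 and 3652 UMIs. A Trdv4 UMI was present in 3430 and 4396 of them. The rule does not exclude dermal γδ T cells, whose 3 listed genes in the files summed to 44.9 and 41.7 CPM. All 6 DETC markers were detected in both libraries, with a summed level of 20918 and 20488 CPM led by Cd3g, but the rule itself required 4 of them. Of the 2 markers that it did not use, Trdv4 was at 937 CPM (isotype) and 759.8 CPM (anti-Skint1). Both other classes have 0 by rule, so no contrast is drawn from Trdv4. Tcrg-V5 was at 55.5 and 60.2 CPM, against 0.99 and 3.01 CPM in the αβ T class. The αβ T rule leaves out barcodes with Trdv4, which may lower its Tcrg-V5. All 4 keratin markers were detected too, at a summed 157 and 192 CPM, with Krt14 the most abundant, but at least 5 keratin UMIs occurred in 9 and 13 DETC barcodes alone.

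The αβ T class, barcodes with a Trac UMI and no Trdv4, numbered 214 and 229. It carried all 7 αβ T markers in both libraries (summed 3222 and 2704 CPM, led by Trbc2), of which the rule required Trac. The same list summed to 2510.4 and 2198 CPM in DETC, so the sum hardly sets the class apart, and 47 and 69 of its barcodes also had Trdc, at 341 and 626 CPM over the class. These cells are therefore called Trac-positive cells here.

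The third class, with at least 3 UMIs of Il7r, Rora and Gata3 together, at most 2 of CD3 genes and no Trdv4, was labelled innate lymphoid but went against that label. Of its 134 and 220 barcodes, 47 and 90 had at least 5 keratin UMIs, and these held 71.1% and 77.1% of its UMIs. In that subset Ptprc, the gene of CD45, was at 2.74 and 5.54 CPM and Il7r at 1.83 and 4.53 CPM, against 926 and 947 CPM of Ptprc in DETC. All 4 keratin markers were present over the class, at a summed 15736 and 17794 CPM led by Krt10, and 12 and 13 further barcodes had at least 5 UMIs of the Langerhans markers Cd207, Cd74 and H2-Aa. The class is called the CD3-low class here, and its 75 and 117 barcodes without either marker set are given beside it, a split made after seeing the data. It shares 9 and 14 barcodes with the Trac-positive class.

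Free RNA held these genes as well. Barcodes of 1 to 100 UMIs, which hold no cell, carried the 34 genes at a summed 1024 CPM (991 to 1058) in the isotype library and 1036 CPM (1001 to 1071) in the anti-Skint1 library. This is below the level in all DETC (1194 and 1092 CPM) but above that in DETC with at most 2500 genes (795 and 807 CPM). Dut, the member with most UMIs in DETC, was at 168 CPM (155 to 182) and 159 CPM (146 to 173) in free RNA, above its level in DETC of each library. Keratin genes stood at 857 and 1261 CPM in free RNA and at 15.6 and 18.0 CPM in DETC of 1500 to under 2000 genes. The part of free RNA in the levels of the 34 genes was not tested. Barcodes of 100 to under 500 genes carried the 34 genes at 951 CPM (817 to 1101) and 690.0 CPM (571 to 827).

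All 34 genes were detected in DETC of both libraries, at a summed 1194 CPM (1178 to 1210.5) in the isotype library and 1092 CPM (1078 to 1106) in the anti-Skint1 library. The pool was uneven. Dut, which breaks down dUTP so that uracil is kept out of DNA, had the highest level, 156 CPM (151 to 162) and 148 CPM (143 to 153). Slbp, which binds the stem-loop at the end of histone mRNAs, came next at 132 CPM (127 to 138) and 134 CPM (129 to 138). Both were also high in DETC that showed no mitosis gene, where Dut was at 105 CPM in each library and Slbp at 116 and 117 CPM. Pcna, the sliding clamp, was at 81.4 CPM (77.2 to 85.7) and 70.9 CPM (67.3 to 74.5). Rfc2, a subunit of the clamp loader, stood at 64.8 CPM (61.1 to 68.7) and 56.3 CPM (53.2 to 59.6). Pclaf, a small protein that binds PCNA, reached 63.1 CPM (59.5 to 66.9) and 52.9 CPM (49.9 to 56.1). With Rrm2, the regulatory subunit of ribonucleotide reductase, at 62.3 CPM (58.7 to 66.1) and 42.5 CPM (39.8 to 45.3), these were the 6 members with most UMIs. The lowest member was Cdc6, a loader of the MCM helicase, at 4.45 CPM (3.52 to 5.54) and 3.02 CPM (2.33 to 3.85).

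Reads of Pcna and Tyms are uncertain, since processed pseudogenes of both are annotated and could share reads with them. Whether other members have such pseudogenes is not given here. Positions of genes are those of GENCODE vM21, on build GRCm38. Rrm2 (ENSMUSG00000020649) lies on chromosome 12 from 24708241 to 24714146, Pclaf (ENSMUSG00000040204) on chromosome 9 from 65890237 to 65903266, Dut (ENSMUSG00000027203) on chromosome 2 from 125247190 to 125258608, and Slbp (ENSMUSG00000004642) on chromosome 5 from 33634952 to 33652574.

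DETC of the 2 libraries differed little in these genes. The summed level had a log2 ratio of anti-Skint1 over isotype of -0.13 (-0.16 to -0.10). Of the 34 members, 0 were at least 1.5-fold higher, against 2.85% of all genes with enough UMIs, and 0 were at least 1.5-fold lower, against 3.78%. Their median ratio was -0.14 where that of all 12529 genes was -0.03, and 6 of 34 lay above 0. The largest ratios below 0 were those of Cdc6, at -0.56 (-1.05 to -0.07), and Rrm2, at -0.55 (-0.68 to -0.42). Fen1, the nuclease that trims flaps off Okazaki fragments, had the highest, from 14.6 CPM (12.9 to 16.5) to 17.2 CPM (15.5 to 19.1), a ratio of 0.24 (0.01 to 0.47).

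By role, all ratios in DETC lay between -0.27 and -0.02. The MCM helicase genes summed to 176 CPM (169 to 182) in the isotype library and 164 CPM (159 to 169.7) in the anti-Skint1 library. Within the ring, Mcm5 had the ratio farthest from 0, -0.44 (-0.67 to -0.21), while Mcm4 and Mcm6 lay above 0 at 0.05 (-0.12 to 0.22) and 0.13 (-0.04 to 0.29). The licensing and activation genes summed to 35.7 CPM (32.98 to 38.6) and 29.5 CPM (27.3 to 31.9), the role with the lowest ratio, -0.27 (-0.44 to -0.11). It holds Cdc6, Cdt1, which loads MCM with it, and Cdc45 and Gins2, which complete the moving helicase. The clamp genes, with Rfc4 as the second loader subunit, summed to 228 CPM (221 to 235) and 198 CPM (192 to 204), a ratio of -0.21 (-0.27 to -0.14).

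Priming, synthesis and single-strand binding genes did not differ beyond counting error, at 104 CPM (99.2 to 109) and 103 CPM (98.5 to 107). Prim1 makes the RNA primer, Pola1 extends it, Pold3 belongs to polymerase δ and Rpa2 coats single strands. The pair that matures Okazaki fragments, Fen1 and the ligase Lig1, summed to 53.6 CPM (50.2 to 57.1) and 52.1 CPM (49.1 to 55.2). Nucleotide supply was the largest role, at 339 CPM (330.4 to 348) and 299 CPM (292 to 307), a ratio of -0.18 (-0.23 to -0.13). Apart from Dut and Rrm2 it holds Tyms and Tk1, which make thymidine nucleotides, Rrm1, the large reductase subunit, and Ung, which removes uracil from DNA. Tk1 had a ratio of -0.41 (-0.61 to -0.21) and Ung one of 0.03 (-0.17 to 0.23).

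Chromatin and histone supply genes were at 189 CPM (183 to 196) and 184 CPM (178 to 189), a difference within counting error, and most of that level was Slbp. The other members of that role are Chaf1b, which places histones on new DNA, Hells, a chromatin remodeller, and Uhrf1, which reads half-methylated DNA after the fork has passed. Control genes summed to 69.3 CPM (65.5 to 73.3) and 62.6 CPM (59.3 to 66.1), a ratio of -0.15 (-0.26 to -0.03). They are the transcription factor E2f1, the cyclin Ccne2, the checkpoint mediator Clspn and the recombination cofactor Rad51ap1. Rad51ap1 had the ratio farthest below 0 of the 4, at -0.33 (-0.59 to -0.07).

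Other lists set these values in context. Of 46 further replication genes, 0 were past 1.5-fold in DETC and the median ratio was -0.06. Genes of mitosis differed more than the members did. Of 26, 13 were at least 1.5-fold lower in the anti-Skint1 library, with a median of -0.58 and a summed level of 904 CPM (890.2 to 918) against 626 CPM (616 to 637). The 18 other genes of G1 control summed to 2053 CPM (2032 to 2074) and 2088 CPM (2068 to 2107), with 2 lower and 0 higher.

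**Figure D1:**
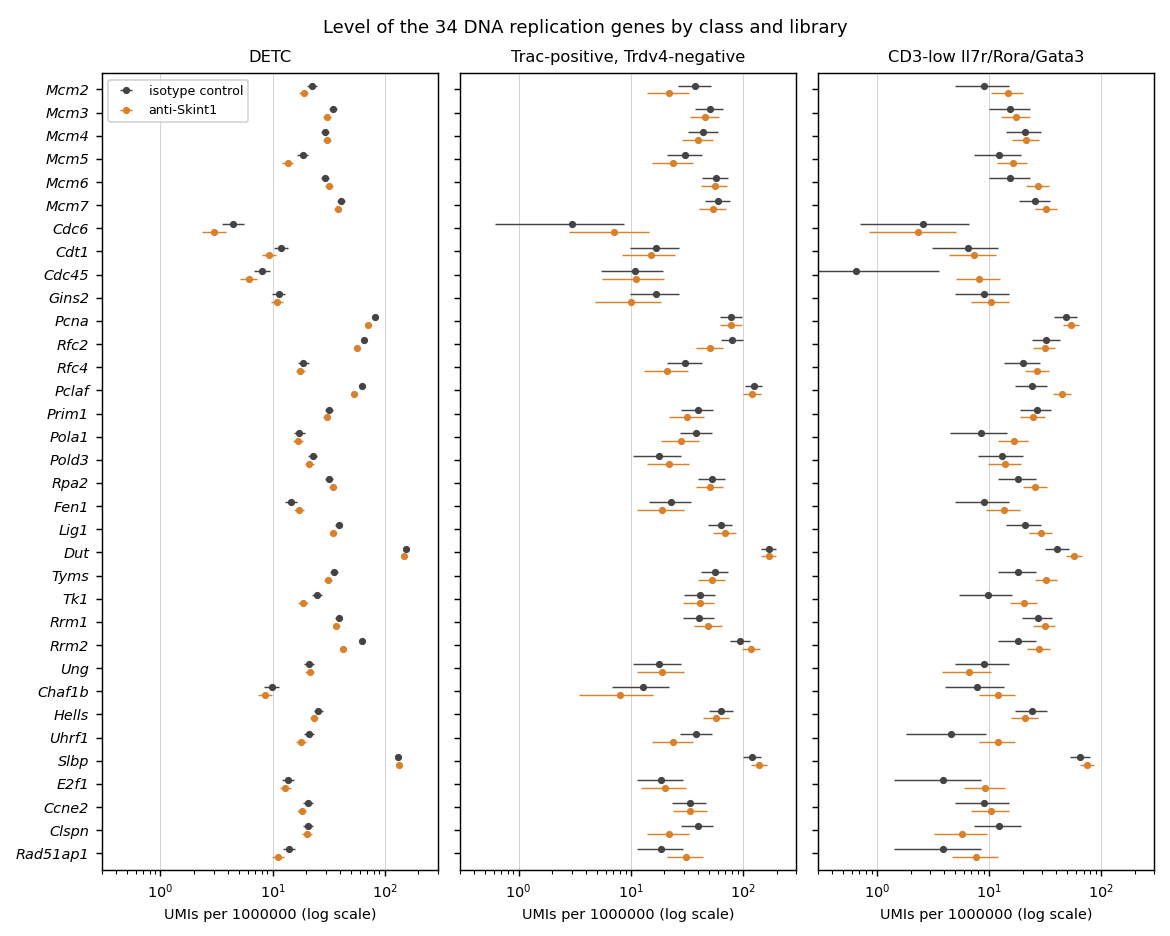
Level of each of the 34 genes, in UMIs per 1000000 UMIs of the class on a log axis, in DETC, Trac-positive cells and the CD3-low class. Points are the 2 libraries and bars the exact 95% Poisson intervals for counting error, which are short in DETC, where Dut and Slbp have the highest levels, and long for Cdc45 of the CD3-low class, whose bar for 1 UMI in the isotype library runs past the axis.

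An upper limit of 2500 genes per barcode takes away much of what these genes show in DETC. It removed 312 of 3856 isotype DETC, which is 8.09% (7.25 to 8.997), and 287 of 5232 anti-Skint1 DETC, which is 5.49% (4.88 to 6.14). Those barcodes held 17.4% and 13.0% of all DETC UMIs, but 45.0% (44.3 to 45.7) and 35.7% (35.1 to 36.3) of the UMIs of the 34 genes. With the limit the summed level was 795 CPM (781 to 810.0) and 807 CPM (794 to 819.8), a ratio to the level without it of -0.59 (-0.60 to -0.57) and -0.44 (-0.45 to -0.42). At least 1.5-fold lower in both libraries were 10 of 34 members, against 3.21% of all genes. Among the other lists it was 25 of 26 mitosis genes, 5 of 46 further replication genes and 3 of 18 G1 control genes, and the median ratio was -0.55 and -0.40 for the members where that of all genes was -0.01 in the isotype library.

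Rrm2 lost most to the limit. Its level went from 62.3 to 11.7 CPM (10.0 to 13.6) in the isotype library and from 42.5 to 10.6 CPM (9.21 to 12.2) in the anti-Skint1 library. Of its UMIs, 84.5% (82.2 to 86.5) and 78.2% (75.4 to 80.9) lay in barcodes above 2500 genes. Pclaf was next, with 79.8% (77.3 to 82.1) and 74.6% (72.0 to 77.1) of its UMIs there, and a level with the limit of 15.5 CPM (13.5 to 17.6) and 15.5 CPM (13.7 to 17.3). Rad51ap1, a gene of DNA recombination, had 69.9% (63.8 to 75.5) and 65.8% (59.5 to 71.8) there. The other 7 of the 10 were Cdc6, Cdc45, Lig1, Tyms, Tk1, Uhrf1 and Clspn, with shares above the limit from 54.3% for Lig1 to 70.7% for Tk1 in the isotype library.

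Members at the other end barely moved. Ung had 22.7% (18.5 to 27.2) and 18.1% (14.7 to 22.0) of its UMIs above the limit, the lowest mean of the 2 libraries, where all UMIs had 17.4% and 13.0%. Pold3 had 27.2% (22.9 to 31.8) and 14.8% (11.7 to 18.4) there. For Slbp the shares were 26.3% (24.6 to 28.2) and 21.4% (19.9 to 23.0), and its level with the limit was 118 CPM (113 to 124) and 121 CPM (116 to 126). The 34 genes thus spread over a wide range, from Rrm2 with most of its UMIs in the largest DETC to Ung with the share nearest to that of all RNA by the mean of both libraries.

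**Figure D2:**
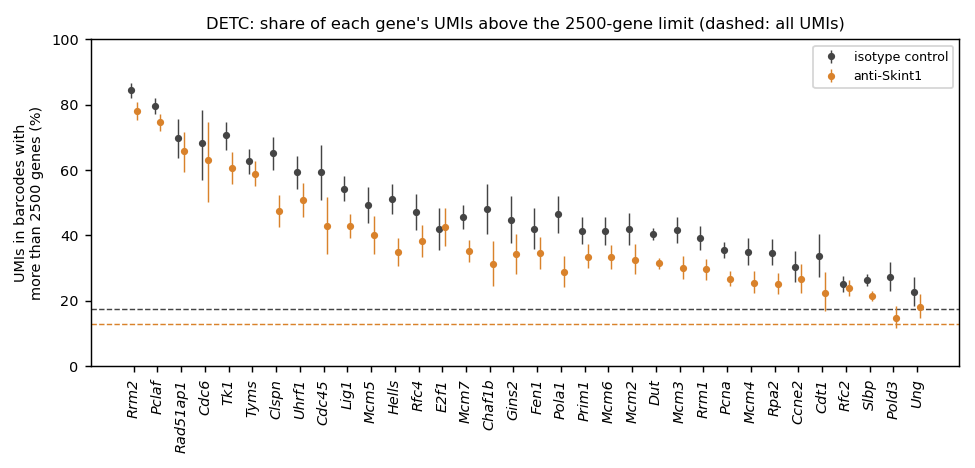
Share of each gene's UMIs in DETC that lie in barcodes with more than 2500 genes, in percent, with genes ordered by the mean of the 2 libraries and exact 95% binomial intervals. Dashed lines mark the share of all UMIs, 17.4% (isotype) and 13.0% (anti-Skint1), and Rrm2 and Pclaf lie highest above them.

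The limit also turned the small difference between libraries. With at most 2500 genes, the ratio of anti-Skint1 over isotype was 0.02 (-0.01 to 0.06) in DETC, within counting error, against -0.13 without a limit. When the same 6.59% of DETC with most genes was removed from each library instead, a choice made after seeing the data, the levels were 825 and 765 CPM and the ratio was -0.11. Clspn, which links the fork to checkpoint kinase, had the highest ratio under the 2500-gene limit, 0.50 (0.18 to 0.82), from 8.66 CPM (7.22 to 10.3) to 12.2 CPM (10.7 to 13.9), and was singled out after its values were seen. Without a limit its ratio was -0.02 (-0.23 to 0.18).

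Sorted by genes per barcode, DETC carried the 34 genes at a flat level and then steeply more. In the isotype library the level was 720.0 CPM (608 to 846) at 500 to under 1000 genes, 636 CPM (610.4 to 663) at 1000 to under 1500, and 640.1 CPM (622 to 658) at 1500 to under 2000. It then climbed to 1340.2 CPM (1301 to 1381) at 2000 to under 2500 genes, 2953 CPM (2869 to 3039) at 2500 to under 3000, and 3206 CPM (3117 to 3298) at 3000 or more. The same shape held in the anti-Skint1 library, with 695, 604, 668, 1638, 2641 and 3480.3 CPM in the same order. Mitosis genes climbed from the same bin on, from 225 CPM at 1500 to under 2000 genes to 489, 2084 and then 5586 CPM in the isotype library. G1 control genes did not climb, and stood at 2175 CPM in the smallest and 1884 CPM in the largest isotype DETC.

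Keratin genes moved with size as well. They were at 1561 and 3080.1 CPM in DETC of at least 3000 genes, against 14.5 and 24.4 CPM at 2000 to under 2500 genes, so the largest barcodes include some with keratinocyte RNA. Without the DETC that had at least 5 keratin UMIs, the effect of the limit was -0.59 and -0.44, as before. Of the DETC above 2500 genes, 33 of 312 and 62 of 287 were among the barcodes with the highest doublet scores, and without all such barcodes the effect was -0.60 and -0.45.

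**Figure D3:**
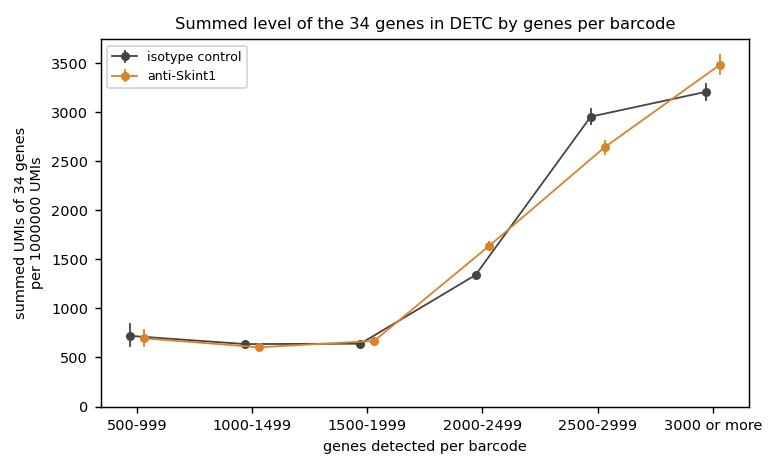
Summed level of the 34 genes in DETC, in UMIs per 1000000 UMIs, against the number of genes detected per barcode, with exact 95% Poisson intervals. Both libraries lie between 604 and 720.0 CPM below 2000 genes and reach 3206 (isotype) and 3480.3 CPM (anti-Skint1) at 3000 genes or more.

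To compare single cells at equal depth, each cell was thinned at random to 2000 UMIs and the members with at least 1 UMI were counted. That left out 134 and 202 DETC with fewer UMIs and kept 3722 and 5030, whose median depths before thinning were 4197.5 and 3702.5 UMIs. Most DETC showed few members. None was seen in 29.2% (27.7 to 30.6) of isotype and 30.0% (28.8 to 31.3) of anti-Skint1 DETC, the median was 1 member in both, and the most in any cell was 18 and 17. At least 5 members were found in 253 of 3722 cells, or 6.80% (6.01 to 7.65), and in 256 of 5030, or 5.09% (4.50 to 5.73). Without thinning these shares were 16.5% (15.3 to 17.7) and 13.4% (12.5 to 14.3). With at most 2500 genes, and cells thinned in a new random draw, they were 2.90% and 2.93%. The count is a range and not a cell type. Exactly 3, 4, 5 and 6 members were seen in 279, 107, 55 and 42 isotype DETC and in 391, 157, 72 and 40 anti-Skint1 DETC.

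A sort of DETC by mitosis genes did not use the members. DETC thinned to 2000 UMIs with at least 3 of 26 mitosis genes numbered 148 of 3722, or 3.98% (3.37 to 4.66), and 131 of 5030, or 2.60% (2.18 to 3.08). These mitosis-high DETC had medians of 2852 and 2867 genes before thinning, against 1648 and 1507 in the 2572 and 3648 DETC with no mitosis gene. Replication genes were far higher in them. The summed level was 5307 CPM with mitosis genes and 728 CPM without in the isotype library, and 5168 and 705 CPM in the anti-Skint1 library, ratios of 2.87 (2.78 to 2.95) and 2.87 (2.79 to 2.96). Of the 33 members with enough UMIs, 30 were at least 1.5-fold higher in both libraries, against 11.3% of all genes. The minimum is on the sum of both groups, so a member could reach it through the mitosis-high cells. Rad51ap1 did so, with 34 UMIs in them and 12 without mitosis genes (isotype) and 31 and 15 (anti-Skint1). The count is therefore a description only. The median ratio of the members was 2.65 and 2.61 where all genes had -0.05 in both.

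Rrm2 again led. It was at 784 CPM with mitosis genes and 4.28 CPM without (isotype), then 527 and 2.19 CPM (anti-Skint1). Its ratios were 7.52 (6.89 to 8.22) and 7.91 (7.16 to 8.76). Pclaf was at 709 against 6.03 CPM and at 817 against 3.70 CPM, with ratios of 6.88 (6.33 to 7.47) and 7.79 (7.205 to 8.42). For Rad51ap1 the levels were 115 and 2.33 CPM, then 118 and 2.06 CPM, and the ratios 5.62 (4.64 to 6.71) and 5.85 (4.91 to 6.84). These 3 members were nearly absent from DETC without mitosis genes.

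The members outside the count were Rfc2, Ung and Mcm2. Rfc2 stood at 77.7 against 57.9 CPM (isotype) and 111 against 46.6 CPM (anti-Skint1), with ratios of 0.42 (-0.26 to 1.04) and 1.25 (0.65 to 1.80). Ung had ratios of 1.24 (0.27 to 2.08) and 0.58 (-0.76 to 1.67), and Mcm2, a subunit of the MCM ring, had 1.72 (0.78 to 2.55) and 0.57 (-1.09 to 1.84). Few UMIs lie behind the last pair, 7 of Ung and 5 of Mcm2 in mitosis-high anti-Skint1 DETC. Cdc6 was under the minimum, with 14 and 11 UMIs in all.

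By role, the ratio was highest for control genes in both libraries, 3.50 (3.13 to 3.86) and 3.81 (3.45 to 4.16). Nucleotide supply had 3.49 (3.34 to 3.64) and 3.40 (3.24 to 3.55). It was lowest for chromatin and histone supply in the isotype library, 1.86 (1.60 to 2.11), with 1.98 (1.71 to 2.23) in the other, and lowest for the MCM ring in the anti-Skint1 library, 1.78 (1.48 to 2.08), with 2.20 (1.94 to 2.45) in the isotype library. Of 46 further replication genes, 31 of the 38 with enough UMIs were higher, with a summed ratio of 1.58 (1.49 to 1.67) and 1.46 (1.37 to 1.56). G1 control genes had a summed ratio of -0.12 (-0.24 to 0.00) and -0.18 (-0.31 to -0.05), with 6 of 15 at least 1.5-fold higher in both libraries and 2 lower. Keratin genes were also higher in mitosis-high DETC, at 132 against 51.1 CPM and 267 against 53.6 CPM, and their part in the result was not tested.

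**Figure D4:**
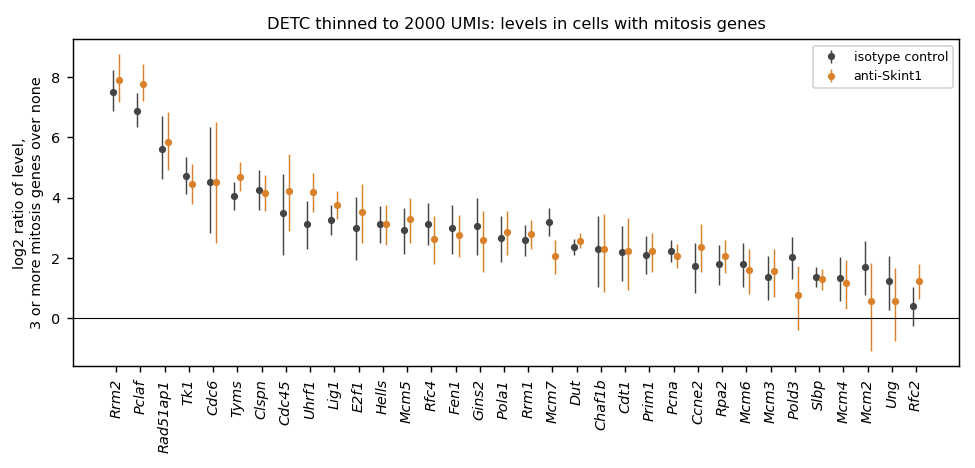
Log2 ratio of each gene's level in DETC with at least 3 mitosis genes over DETC with none, all thinned to 2000 UMIs, with exact conditional binomial 95% intervals. Rrm2 and Pclaf have the highest ratios, between 6.88 and 7.91, and Rfc2 in the isotype library is nearest to 0 at 0.42.

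Many cells with several replication genes showed no mitosis gene. Of the mitosis-high DETC, 68.9% (60.8 to 76.3) and 67.2% (58.4 to 75.1) had at least 5 members, against 3.31% (2.65 to 4.07) and 2.52% (2.04 to 3.08) of DETC with no mitosis gene. Seen the other way, of the 253 and 256 DETC with at least 5 members, 40.3% (34.2 to 46.6) and 34.4% (28.6 to 40.5) were mitosis-high. No mitosis gene was seen at that depth in 33.6% (27.8 to 39.8) and 35.9% (30.1 to 42.1) of them. More than 2500 genes were found in 52.6% (46.2 to 58.9) and 46.1% (39.9 to 52.4) of the cells with at least 5 members.

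The members also differed in how far each kept company with the rest. For each one, the share of its UMIs in thinned DETC with at least 4 of the other 33 members was taken, which under even spread would be near the 6.74% to 9.67% of cells that qualify. Rrm2 had 89.5% (85.2 to 92.8) and 80.2% (73.5 to 85.9) of its UMIs in such cells, Pclaf 88.6% (84.3 to 92.2) and 86.0% (81.4 to 89.8). Rad51ap1 had 81.4% (69.1 to 90.3) and 74.2% (61.5 to 84.5), and Cdc6, on 18 and 16 UMIs, 77.8% and 87.5%. Slbp lay lowest in the isotype library at 16.6% (14.3 to 19.2), with 14.3% (12.4 to 16.3) in the other. Pold3 had 20.7% (14.8 to 27.8) and 11.9% (7.76 to 17.2), and Rfc2 18.0% (14.6 to 21.9) and 15.0% (11.97 to 18.5). The MCM genes ranged from 30.2% for Mcm4 to 54.2% for Mcm5 in the isotype library.

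Since most members were high in the same cells, their promoters were searched for the E2F letters TTTGGCGC, TTTCGCGC, TTTCCCGC and TTTGCCGC and for the CCAAT box, on both strands. RefSeq promoters of 300 bases (250 before the start and 50 after, build GRCm38.p6) were matched to 30 of the 34 members, and Mcm4, Gins2, Rfc2 and Ccne2 were not matched. At least 1 of the 4 E2F strings occurred in 13 of the 35 promoters of these members, or 37.1%, and in 2.26% of all 32851 promoters. By gene, they occurred in 13 of 30 members. The 13 members were Mcm3, Mcm5, Mcm6, Mcm7, Cdc6, Cdt1, Pclaf, Pola1, Pold3, Lig1, Hells, Uhrf1 and Clspn. TTTGGCGC was in 5 of the 35 promoters and 0.514% of all, TTTCGCGC in 6 and 0.323%, TTTCCCGC in 6 and 1.07%, and TTTGCCGC in 0 and 0.441%. CCAAT occurred in 19 of the 35 member promoters, or 54.3%, and in 37.4% of all promoters. A match is a description of letters and not a bound site.

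Promoters of 4 members are shown, with matches to any of these strings on either strand in capitals and overlapping matches joined. Mcm5 (chr8:75109259-75109558, plus strand) has 2 E2F matches that overlap and 3 CCAAT boxes. Mcm6 (chr1:128359656-128359955, minus strand) has the most E2F matches of the 4, at 3, and 2 CCAAT boxes. Pclaf (chr9:65890073-65890372, plus strand) has 1 E2F match and 2 CCAAT boxes. Rrm2 (chr12:24708004-24708303, plus strand), the member with the highest ratio in mitosis-high DETC, has none of the E2F strings in this window and 1 CCAAT box.
Mcm5: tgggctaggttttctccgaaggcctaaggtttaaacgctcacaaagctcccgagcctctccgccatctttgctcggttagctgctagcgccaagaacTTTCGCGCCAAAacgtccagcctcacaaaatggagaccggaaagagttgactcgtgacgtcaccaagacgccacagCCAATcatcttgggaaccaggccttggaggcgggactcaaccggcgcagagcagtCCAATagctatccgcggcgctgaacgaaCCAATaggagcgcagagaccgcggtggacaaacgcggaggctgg
Mcm6: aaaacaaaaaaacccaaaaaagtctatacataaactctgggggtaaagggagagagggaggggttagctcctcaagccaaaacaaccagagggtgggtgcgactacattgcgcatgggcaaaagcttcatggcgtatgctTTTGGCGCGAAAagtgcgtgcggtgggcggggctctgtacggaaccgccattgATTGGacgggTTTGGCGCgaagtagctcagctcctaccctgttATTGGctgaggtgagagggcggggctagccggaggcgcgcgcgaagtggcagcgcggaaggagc
Pclaf: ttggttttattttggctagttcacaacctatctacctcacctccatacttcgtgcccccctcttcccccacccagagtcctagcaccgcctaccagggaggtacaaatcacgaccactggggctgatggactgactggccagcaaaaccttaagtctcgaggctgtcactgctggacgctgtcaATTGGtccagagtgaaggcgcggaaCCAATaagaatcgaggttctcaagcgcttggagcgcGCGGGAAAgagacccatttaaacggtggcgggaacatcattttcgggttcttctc
Rrm2: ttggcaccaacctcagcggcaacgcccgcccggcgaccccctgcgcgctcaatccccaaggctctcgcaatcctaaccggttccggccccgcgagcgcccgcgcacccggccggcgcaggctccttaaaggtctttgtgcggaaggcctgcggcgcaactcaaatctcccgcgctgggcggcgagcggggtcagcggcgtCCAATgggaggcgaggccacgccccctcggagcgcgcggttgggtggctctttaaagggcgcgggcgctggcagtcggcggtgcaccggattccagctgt

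Trac-positive cells carried more replication RNA than DETC in both libraries. Their summed level was 1649.5 CPM (1571 to 1731) in the isotype library and 1569.5 CPM (1493 to 1649) in the anti-Skint1 library. The ratio to DETC was 0.47 (0.39 to 0.54) and 0.52 (0.45 to 0.60), and relative to the median of all genes in the same comparison, which was -0.15 and -0.21, it was 0.62 and 0.74. At least 1.5-fold higher in both libraries were 10 of 34 members, against 8.06% of all genes, and 0 were lower, against 19.2%. Their median ratio was 0.58 and 0.54. The 10 were Mcm5, Mcm6, Pclaf, Pola1, Lig1, Tyms, Tk1, Rrm2, Hells and Ccne2. Of the further replication genes 8 of 46 were higher, and of the mitosis genes 11 of 26.

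By the mean of the 2 libraries, Hells stood highest against DETC. It was at 64.4 CPM (49.7 to 82.1) and 58.2 CPM (44.2 to 75.2) in Trac-positive cells and at 25.6 CPM (23.3 to 28.1) and 23.4 CPM (21.4 to 25.6) in DETC, ratios of 1.33 (0.93 to 1.71) and 1.31 (0.89 to 1.71). Pclaf reached 125 CPM (104 to 149) and 121 CPM (101 to 145) in Trac-positive cells, with ratios to DETC of 0.98 (0.71 to 1.25) and 1.20 (0.92 to 1.47). Rrm2 was at 94.1 CPM (76.1 to 115) and 118 CPM (98.0 to 142), with ratios of 0.60 (0.28 to 0.90) and 1.48 (1.19 to 1.76). The lowest ratios were within counting error of 0. They were those of Ung, at -0.24 (-1.01 to 0.44) and -0.18 (-0.92 to 0.48), Pold3, at -0.36 (-1.12 to 0.32) and 0.05 (-0.64 to 0.67), and Slbp, at -0.12 (-0.39 to 0.14) and 0.06 (-0.19 to 0.31).

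Cell by cell, at least 5 members were found in 26 of 207 thinned Trac-positive cells, or 12.6% (8.37 to 17.9), and in 28 of 212, or 13.2% (8.96 to 18.5), with 7 and 17 shallower cells left out. Unthinned shares were 20.1% (14.9 to 26.1) and 18.8% (13.9 to 24.5) at median depths of 3915.5 and 3786 UMIs. The thinned shares exceeded those of DETC at the same depth. The summed level was 1617 CPM (1470.4 to 1775) and 1767 CPM (1632 to 1911) in barcodes that also held Trdc, and 1662 CPM (1570 to 1758) and 1460.4 CPM (1368 to 1557) in those without it.

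Between libraries, the summed level of all Trac-positive cells had a ratio of -0.07 (-0.17 to 0.03), but that ratio depended on the barcodes taken. It was -0.19 (-0.31 to -0.06) without the barcodes that held Trdc, 0.13 (-0.05 to 0.31) in those alone, and -0.26 (-0.38 to -0.13) with at most 2500 genes. Of the 33 members with enough UMIs, 1 was higher, against 6.88% of all genes, and 6 were lower, against 11.9%. The median ratio was -0.09, and that of all genes was -0.08. Rad51ap1 was the member that was higher, from 18.8 CPM (11.3 to 29.4) to 31.1 CPM (21.1 to 44.2), on 50 UMIs. Lower were Clspn, Mcm2, Gins2, Chaf1b, Uhrf1 and Rfc2. Clspn went from 39.6 CPM (28.3 to 54.0) to 22.1 CPM (13.8 to 33.4), a ratio of -0.84 (-1.67 to -0.06). Mcm2 went from 37.6 CPM (26.6 to 51.7) to 22.1 CPM (13.8 to 33.4) and Gins2 from 16.8 CPM (9.81 to 27.0) to 10.0 CPM (4.81 to 18.5). For Mcm2, Gins2, Chaf1b, Uhrf1 and Rad51ap1 the interval of the ratio includes 0, and Cdc6, with 10 UMIs, was under the minimum.

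Mitosis genes differed more between the libraries, at 1614 CPM (1536 to 1694) and 821 CPM (766 to 879) in Trac-positive cells. Of 22 with enough UMIs, 15 were lower. A single barcode held 30.2% of those UMIs in the isotype library, whereas no barcode held more than 5.95% (isotype) or 6.59% (anti-Skint1) of the UMIs of the 34 genes. With at most 2500 genes the mitosis level was 331 and 411 CPM, in the opposite order.

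Relative to DETC, the CD3-low class carried less replication RNA, and most genes were at a lower level in it as well. It had a summed 594 CPM (556 to 634) in the isotype library and 771 CPM (738 to 806) in the anti-Skint1 library, both below the level in free RNA. Ratios to DETC were -1.01 (-1.10 to -0.91) and -0.50 (-0.57 to -0.44), where the median of all genes was -0.39 and -0.42. Lower by at least 1.5-fold in both libraries were 9 of 34 members, fewer by share than the 34.8% of all genes, and 0 were higher, against 15.8%. DETC alone met the minimum of 20 UMIs for all 34 members, so some lower members rest on few UMIs in the class, such as Ung with 14 and 17. The median member ratio was -0.91 and -0.35, which is below that of all genes in the isotype library and above it in the anti-Skint1 library. The 9 were Mcm3, Rfc2, Pold3, Dut, Rrm2, Ung, Slbp, Ccne2 and Clspn.

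By the mean of the 2 libraries, Dut was the lowest against DETC. It stood at 41.0 CPM (31.5 to 52.4) and 57.4 CPM (48.5 to 67.4) in the class, with ratios of -1.93 (-2.32 to -1.57) and -1.37 (-1.62 to -1.13). Cdc45, with 1 and 21 UMIs, had ratios of -3.63 (-8.94 to -1.13) and 0.40 (-0.34 to 1.07). For Ung the ratios were -1.21 (-2.10 to -0.45) and -1.71 (-2.50 to -1.01). Highest was Rfc4, at 20.2 CPM (13.7 to 28.6) and 27.2 CPM (21.2 to 34.3), with ratios of 0.10 (-0.49 to 0.63) and 0.61 (0.22 to 0.98). Chaf1b followed at -0.34 (-1.32 to 0.50) and 0.48 (-0.12 to 1.03), and Hells at -0.09 (-0.62 to 0.39) and -0.16 (-0.59 to 0.24). At least 5 members were found in 4 of 129 thinned barcodes, or 3.10% (0.85 to 7.75), and in 10 of 217, or 4.61% (2.23 to 8.31), with 5 and 3 left out. Unthinned shares were 20.1% (13.7 to 28.0) and 25.5% (19.8 to 31.7) at median depths of 6158 and 5738 UMIs.

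Its barcodes without keratin or Langerhans markers were lower than DETC too. These had 507 and 511 CPM of Ptprc and 768 and 828 CPM of Il7r. As the class rule counts Il7r, its level cannot show what these barcodes are. The list of αβ T markers summed to 1974 and 2076.5 CPM in them, led by Trbc1 at 1233 and 1237 CPM. That list was at 2510.4 and 2198 CPM in DETC. The innate lymphoid list, which includes the genes of the rule, summed to 1718 and 1935 CPM. Which cells these barcodes hold was not tested. In these barcodes the summed level of the 34 genes was 801 CPM (712 to 899) and 596 CPM (531 to 666). Ratios to the 3838 and 5210 DETC without these markers were -0.58 and -0.88. At least 1.5-fold lower in both libraries were 17 of 34 members, against 24.9% of all genes, and 0 were higher, against 8.98%. These counts are not read as a result, since DETC alone met the minimum of 20 UMIs for all 34 members. In these barcodes Cdc45 had 0 and 1 UMIs, Cdc6 1 and 0, and Clspn and Rad51ap1 1 in each library. Medians were -0.64 and -1.16 for the members and -0.20 and -0.32 for all genes. Slbp was the most abundant member there, at 121 CPM (88.0 to 163) and 108 CPM (81.9 to 141).

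Between libraries, the direction in the CD3-low class depended on which barcodes were in it. Over the whole class the ratio was 0.38 (0.26 to 0.49), with 12 of 33 members higher, against 7.05% of all genes, and 1 lower, against 10.1%. The minimum of 20 UMIs is on the sum of both libraries. Several of the 12 reached it mainly through the anti-Skint1 library, such as Uhrf1 with 7 and 31 UMIs and Tk1 with 15 and 53. These counts are therefore not read as a result. The median ratio was 0.43 where all genes had -0.05. Without keratin or Langerhans markers the ratio was -0.43 (-0.66 to -0.19). Mitosis genes differed more in these barcodes, at 908 and 104 CPM, and 1 isotype barcode held 172 of the 330 mitosis UMIs. The anti-Skint1 library held 54, so mitosis genes reached the minimum mostly through the isotype library and are not counted. Of the 9 members with enough UMIs 0 were higher, against 7.65% of all genes, and 2 were lower, against 16.0%. Those 2 were Rfc2, from 46.8 CPM (27.3 to 74.9) to 29.0 CPM (16.2 to 47.9), and Rrm1, from 44.1 CPM (25.2 to 71.5) to 13.5 CPM (5.45 to 27.9), the second named after its values were seen. The other 25 members had under 20 UMIs in that comparison, and the median ratio was -0.16 for the 9 and -0.09 for all genes.

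Keratin-bearing barcodes carried the rise. In them the 34 genes were at 540.5 CPM (498 to 586) in the isotype library and 833 CPM (793 to 874) in the anti-Skint1 library, a ratio of 0.62 (0.49 to 0.76). A single barcode held 195 of their 591 member UMIs (isotype) and 142 of 1655 (anti-Skint1). Mitosis genes moved with the members, at 374 and 810.2 CPM. The 12 and 13 barcodes with Langerhans markers had the 34 genes at 393 CPM (269 to 555) and 337 CPM (218 to 498). What set the difference among keratin-bearing barcodes was not tested.

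Over the whole CD3-low class, the 12 higher members were Mcm2, Mcm6, Cdc45, Pclaf, Pola1, Tyms, Tk1, Rrm2, Chaf1b, Uhrf1, E2f1 and Rad51ap1. Cdc45 went from 0.65 CPM (0.02 to 3.62) to 8.15 CPM (5.04 to 12.4), a ratio of 3.65 (1.01 to 9.02) that rests on 1 UMI in the isotype library. Uhrf1 went from 4.55 CPM (1.83 to 9.38) to 12.02 CPM (8.17 to 17.1), a ratio of 1.40 (0.19 to 2.83). E2f1 was at 3.90 CPM (1.43 to 8.49) and 9.31 CPM (5.96 to 13.9), on 30 UMIs. The interval of the ratio includes 0 for 5 of the 12, which are Mcm2, Rrm2, Chaf1b, E2f1 and Rad51ap1. The lower member was Clspn, from 12.3 CPM (7.44 to 19.3) to 5.82 CPM (3.26 to 9.60), a ratio of -1.09 (-2.17 to -0.03). Within the keratin-bearing barcodes Cdc45 had 1 and 20 UMIs, so nearly all of its UMIs in the class came from them. Cdc6, with 10 UMIs, was under the minimum.

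Counts at this depth leave wide intervals outside DETC. The largest number of UMIs of any member was 2776 and 3187 in DETC (Dut), 172 and 170 in Trac-positive cells (Dut), and 100 and 195 in the CD3-low class (Slbp).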

How the data were processed

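The data are 2 single-cell libraries from epidermis, 1 per treatment. The authors deposited unfiltered UMI counts, and the submitters' processing notes list Cell Ranger, without a version, and the builds GRCm38 and mm10. The values are whole numbers of at least 1, with no normalization.

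Sums over class and library used pandas 2.3.3 and numpy 2.4.6 under Python 3.11.15, intervals used scipy 1.17.1, and matplotlib 3.10.9 drew the figures. Gene positions are from GENCODE vM21 and promoters from RefSeq GRCm38.p6. Tyms and Pcna have named processed pseudogenes (Tyms-ps, Pcna-ps1, Pcna-ps2), so multi-mapped reads make their levels uncertain. Cells were thinned to 2000 UMIs without replacement, with seed 7. Scrublet, run through scanpy 1.11.5, gave doublet scores. The threshold it chose marked 1 of 4709 and 0 of 6425 barcodes, so ranks were used, at 0.8% per 1000 barcodes, which marked 177 and 330. They were kept except in the alternative without them. The ratio and its interval were tried on simulated data, and no outcome of that trial is given here.

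The members and lists were chosen with earlier results of these data known. Named genes were the 6 members with most UMIs in DETC, the 3 largest 1.5-fold changes each way per class, the 3 highest and 3 lowest ratios of each other class over DETC, and the 3 most and 3 least affected by the limit and in mitotic cells. Other genes given with values, such as Fen1, Mcm5, Tk1 and Lig1 in DETC, were picked as extremes of a role or comparison after their values were seen.

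Settings tried beside the main one covered gene and mitochondrial limits, doublets, the weight of cells, scaling, the class rules, the most abundant members, thinning, the number of members and the minimum of UMIs. Leaving out barcodes with keratin or Langerhans markers, removing the same share of DETC and the ratio of thinned sums were chosen after seeing the data. Nothing was clustered.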

Additional observations from a re-analysis of the deposited data

Results flagged for a closer look

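The difference between treatments in the summed level of the 34 genes had opposite signs in 2 classes. The log2 ratio of anti-Skint1 over isotype was -0.13 in DETC and 0.38 in the CD3-low class. The difference between these ratios was not tested, since each treatment has 1 library. Without barcodes that carried keratin or Langerhans markers, the ratio in the CD3-low class was -0.43.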

How the results depend on the processing

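Of 120 alternative values, 65 lay within the counting interval of the main one, or within 1.5 times for a count, 51 lay outside it with the same sign, and 4 lay outside it with the sign turned. A further value turned its sign within the interval, the treatment ratio in Trac-positive cells relative to the median of all genes, at 0.01 against -0.07. The cause was not tested for any of them. No paired analysis was possible because each treatment has 1 library and the results come from no test. In pairs below, the isotype library comes first.

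With at most 2500 genes, the treatment ratio turned to 0.02 in DETC and -0.16 in the CD3-low class and was -0.26 in Trac-positive cells. Under the same limit the ratio to DETC was -0.64 and -0.82 for the CD3-low class and 0.74 (isotype) for Trac-positive cells, and DETC with at least 5 members were 2.90% and 2.93%. Each setting that changed the cells was thinned in a new random draw, so the part of the draw in these shares cannot be told apart from that of the setting. With at most 5% mitochondrial UMIs, the treatment ratio was 0.55 in the CD3-low class, its ratio to DETC -1.24 (isotype), the effect of the limit -0.83 and -0.62, and the share with at least 5 members 8.50% and 7.66%. Stricter classes gave treatment ratios of -0.16 in DETC, -0.19 in Trac-positive cells and 0.50 in the CD3-low class, ratios to DETC of -1.12 (CD3-low, isotype) and 0.44 (Trac-positive, anti-Skint1), and a limit effect of -0.62 and -0.40. With every cell weighted equally, the CD3-low class had a treatment ratio of 0.20 and ratios to DETC of -0.75 and -0.42, and the limit effect was -0.33 and -0.23. Relative to the median of all genes, the treatment ratio in DETC was -0.10, and ratios to DETC were 0.62 and 0.74 for Trac-positive cells. For the CD3-low class, ratios to DETC of -1.01 and -0.50 stood beside a median of all genes of -0.39 and -0.42. Without the 3 members with most UMIs, the treatment ratio in DETC was -0.16. Ratios to DETC were then -0.91 and -0.34 (CD3-low) and 0.63 and 0.67 (Trac-positive).

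Without keratin-bearing barcodes, the CD3-low class turned to -0.37 between treatments and had -0.72 and -0.96 against DETC. Without Langerhans markers as well it turned to -0.43, with -0.58 and -0.88 against DETC and 2 members past 1.5-fold in place of 13. These settings left such barcodes out of DETC as well and were chosen after seeing the data. With a minimum of 100 UMIs, 1 member was past 1.5-fold in Trac-positive cells (7 in the main count) and 3 in the CD3-low class. DETC with at least 4 members were 9.67% and 8.21%, with at least 6 members 5.32% and 3.66%, thinned to 1000 UMIs 2.83% and 1.92%, thinned to 3000 UMIs 10.6% and 10.0%, and not thinned 16.5% and 13.4%. Depth limits the CD3-low class most without its keratin and Langerhans barcodes, where 9 of 34 members reached 20 UMIs between treatments.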
